A study of Mus musculus with 9 samples.

Results

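The genes described here are the NR4A nuclear receptors Nr4a1, Nr4a2 and Nr4a3, the zinc finger factors Egr1, Egr2 and Egr3, and the immediate early response genes Ier2 and Ier3. They were chosen by symbol, as the array rows whose transcript accession belongs to 1 of these 8 genes, with the row of the highest mean over all arrays where a gene had several. Of the 8 genes, 6 were measured, among 21023 named genes. Nr4a2 and Nr4a3 were not analysed here.

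RNA came from regulatory T cells (Tregs, CD4 T cells that express Foxp3 and restrain immune responses) sorted as CD4+ GFP+ cells from Foxp3EGFP mice on the C57BL/6 background, aged 8 to 12 weeks, in which GFP reports Foxp3. Control lung Tregs came from uninjured mice. Resolving lung and resolving spleen Tregs came from mice given E. coli O55:B5 lipopolysaccharide (LPS) into the trachea at 3 mg/kg, a model of acute lung injury, during its resolution. Each group had 3 arrays. Spleen Tregs of uninjured mice were not analysed here, so control lung and resolving spleen differ in LPS as well as in organ. Lungs were digested with enzymes and spleens were dissociated mechanically, so organ and way of dissociation cannot be told apart in either lung against spleen comparison. Nothing in the labels ties each replicate to an animal of its own, and the spread behind the p-values is that of these arrays, part of which may be technical.

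These genes are switched on within minutes of a stimulus, from factors that the cell already holds, and their messengers are short lived. In T cells the antigen receptor induces NR4A and EGR genes through calcium, protein kinase C and MAP kinase signalling. NR4A receptors bind DNA without a known natural hormone and take part in maintaining Foxp3 in Tregs, while EGR2 and EGR3 restrain T cell activation and are bound by the corepressors NAB1 and NAB2. IER2 is a nuclear protein, and IER3 is a stress-induced protein that acts on cell survival and on NF-kB and ERK signalling.

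The stretch before the transcription start is where such signals meet these genes, and it is shown for Nr4a1, Egr2 and Ier3. These 3 were not chosen by their levels. No promoter stretch was at hand for Egr3 and Ier2, and that of Egr1 is not shown here. Each line holds the 250 bases upstream of a start in RefSeq, on the plus strand of GRCm38.p6. They lie at chr15:101266596-101266845 for Nr4a1, chr10:67537619-67537868 for Egr2 and chr17:35821463-35821712 for Ier3. For Egr2 this is 1 of 5 such starts, taken from those with the most matches to the sites searched. Capitals mark matches, on either strand, to a CRE half-site (TGACG, or CGTCA as read on the other strand), an EGR site (GCGTGGGCG or GCGGGGGCG), a CArG box, the binding site of serum response factor, or a kB site, the binding site of NF-kB.
Nr4a1: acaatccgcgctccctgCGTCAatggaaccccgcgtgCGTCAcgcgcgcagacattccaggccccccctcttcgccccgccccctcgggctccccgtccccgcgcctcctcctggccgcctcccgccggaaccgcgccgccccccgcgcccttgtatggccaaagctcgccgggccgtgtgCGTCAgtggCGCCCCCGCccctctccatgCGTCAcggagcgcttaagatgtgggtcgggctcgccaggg
Egr2: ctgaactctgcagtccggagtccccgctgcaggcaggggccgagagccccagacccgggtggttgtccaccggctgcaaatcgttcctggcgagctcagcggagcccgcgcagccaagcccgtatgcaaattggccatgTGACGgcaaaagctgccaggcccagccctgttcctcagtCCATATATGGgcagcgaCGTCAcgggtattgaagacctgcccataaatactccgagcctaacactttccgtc
Ier3: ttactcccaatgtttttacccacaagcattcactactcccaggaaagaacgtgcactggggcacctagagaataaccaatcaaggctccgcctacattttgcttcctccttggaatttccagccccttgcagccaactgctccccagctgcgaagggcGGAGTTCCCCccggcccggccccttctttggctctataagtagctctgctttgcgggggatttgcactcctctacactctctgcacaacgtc

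The Nr4a1 stretch held 4 CRE half-sites and 1 EGR site. At least 4 CRE half-sites were present in 0.231% of all 32851 RefSeq mouse promoter stretches of 300 bases, and at least 1 was present in 20.8%. An EGR site was present in 3.47% of them. The Egr2 stretch held 1 CArG box, present in 1.63% of all stretches, and 2 CRE half-sites. As this start was picked for its matches, these shares do not measure how unusual Egr2 is. Another Egr2 start held 1 CArG box and no CRE half-site, and not every start held a match. The Ier3 stretch held 1 kB site, present in 4.51% of all stretches. Searches for the full CRE (TGACGTCA, which holds the half-site), the NR4A site AAAGGTCA, the AP-1 site TGAGTCA and the MEF2 site found none of these letters in the printed bases. A match describes the sequence and says nothing of binding in these cells.

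The sorted cells carried the markers that their label calls for. Of 10 Treg markers 9 were measured, all above the dim level in all 9 arrays, where the dim level is the 95th percentile of 905 olfactory receptor genes in an array (3.33 to 3.52 on the log2 scale). The mean of the Treg markers lay between 10.04 and 10.19 in every array. Transcripts of other cells were present as well, and 2 lung arrays stood apart. In replicate 1 of resolving lung the mean level of the 12 measured macrophage and monocyte markers was 7.43, against 5.56 and 5.59 in the other replicates, and that of the 10 fibroblast and smooth muscle markers was 4.33, against 2.37 in both others. In replicate 1 of control lung the mean of the 13 epithelial markers was 6.88, against 5.82 and 5.83 in the others, and that of the 9 endothelial markers was 4.67, against 3.31 and 3.03. B cell markers, 5 of 8 above the dim level in every array, had means of 5.21 to 5.25 in control lung, 4.42 to 4.72 in resolving lung and 5.66 to 7.01 in spleen. In bulk RNA, fewer cells of a type and less RNA per cell cannot be told apart.

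**Figure D1:**
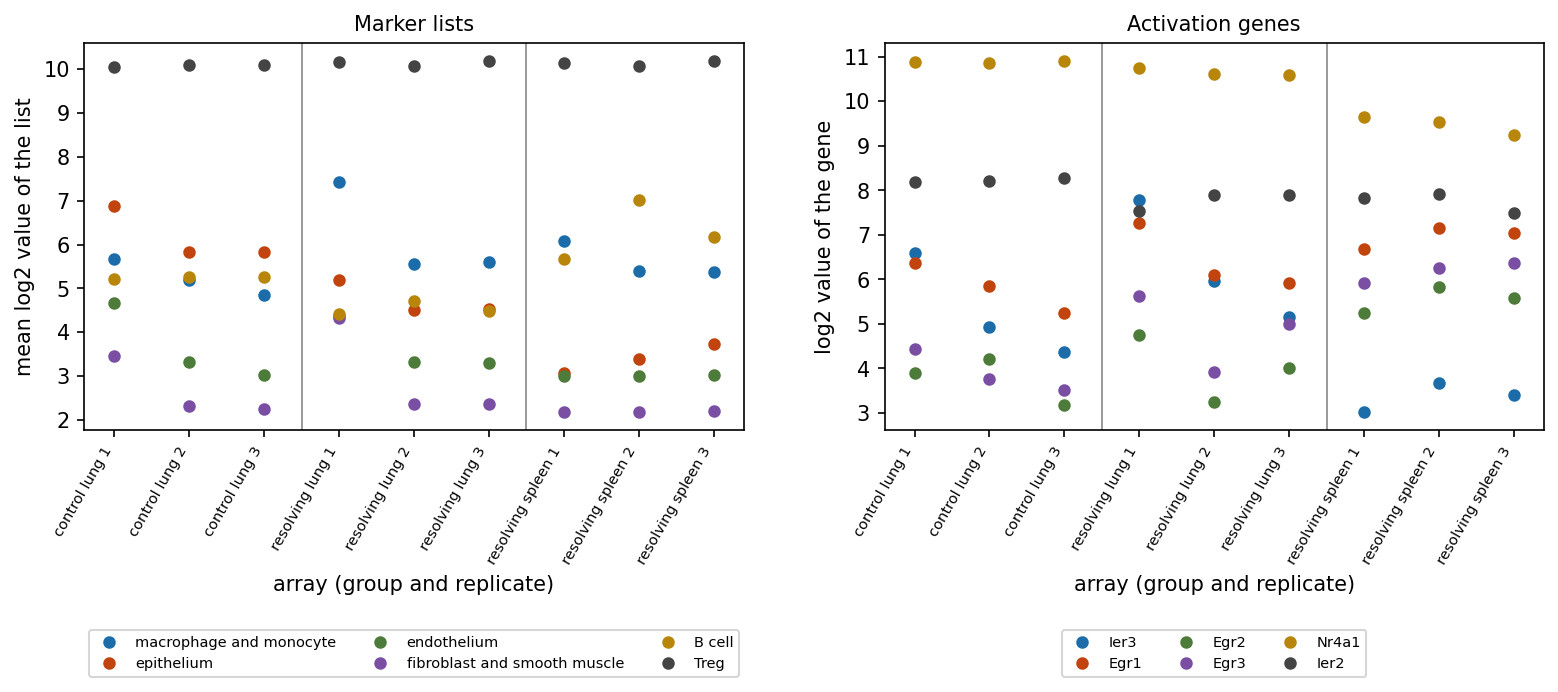
Left, mean log2 level of the measured marker genes of each cell type (y axis) in each of the 9 arrays (x axis, by group and replicate), and right, the log2 level of the 6 measured genes in the same arrays, 1 point per array. Treg markers stay between 10.04 and 10.19, while macrophage and monocyte markers reach 7.43 in replicate 1 of resolving lung and epithelial markers reach 6.88 in replicate 1 of control lung.

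The 6 measured genes did not move as 1 group. Nr4a1 was the one whose level passed the test in both lung against spleen comparisons, and it was higher in lung. Egr2 and Egr3 were lower in control lung than in spleen. Differences are log2 levels of the first group minus the second, and a gene is called changed where the adjusted p of limma's moderated test, with Benjamini-Hochberg adjustment over all 21023 genes, was under 0.05. Between resolving and control lung 0 of 6 genes were called by limma, and 3 had an unadjusted p under 0.05, as did 14% of all genes, while 0.457% of all genes were called (0.133% higher and 0.323% lower). Between resolving lung and spleen 1 of 6 was called, Nr4a1, which was higher, against 5.46% of all genes (2.64% higher and 2.82% lower). Between control lung and spleen 3 of 6 were called, 1 higher and 2 lower, against 6.16% of all genes (2.67% higher and 3.49% lower). The median difference of the 6 genes was 0.42, -0.25 and -0.33 in these comparisons in turn, and the median over all genes lay between 0.0027 and 0.0091.

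Counts of genes whose arrays did not overlap gave a broader picture at a higher background. Between resolving and control lung, 2 of 6 genes were lower in every resolving array and 0 were higher, where 7.5% and 8.79% of all genes did so (16.3% in either direction). Between resolving lung and spleen 2 genes were higher in every lung array and 2 lower, where 11.3% and 11.8% of all genes did so (23.1% in either direction). Between control lung and spleen 3 were higher and 3 lower, so that all 6 separated, where 11.6% and 13.8% of all genes did so (25.5% in either direction). For 1 gene alone, an exact permutation test of 3 arrays against 3 cannot go below p = 0.1. The comparisons share groups and are not independent of each other.

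**Figure D2:**
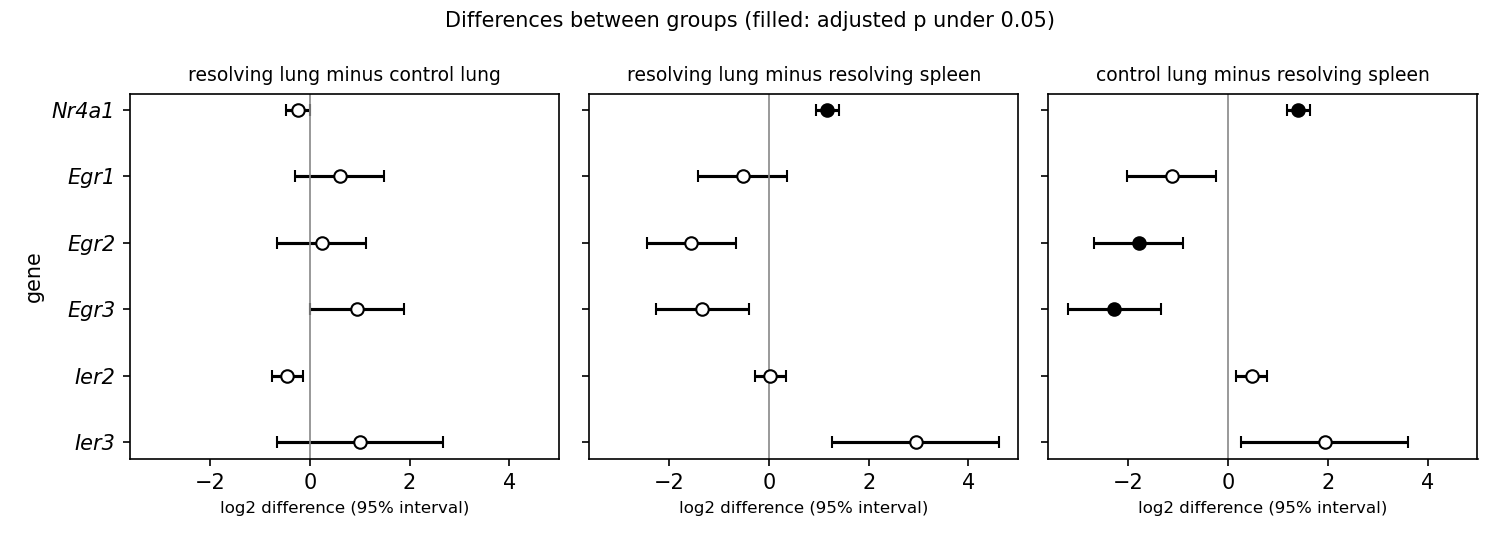
Difference in log2 level (x axis) of each of the 6 measured genes (y axis) in the 3 comparisons, as points with 95% intervals from limma's fit over all 9 arrays, filled where called. Nr4a1 lies above 0 in both lung against spleen comparisons (1.17 and 1.41) and Egr2 and Egr3 lie below 0, at -1.79 and -2.28 for control lung.

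Nr4a1, which encodes NUR77, a nuclear receptor widely used as a reporter of antigen receptor signalling, was high in lung Tregs and lower in spleen Tregs. Its log2 level was 10.87, 10.87 and 10.91 in control lung, 10.74, 10.62 and 10.59 in resolving lung and 9.65, 9.54 and 9.24 in spleen. All 6 lung arrays stood above all 3 spleen arrays, and the resolving lung arrays all stood below the control lung arrays. The mean was 10.88 ± 0.02 (SD, n = 3) in control lung and 9.48 ± 0.21 (SD, n = 3) in spleen, a difference of 1.41 (SE 0.10, 95% interval 1.17 to 1.64, 2.65-fold, limma adjusted p = 4.43e-04). Resolving lung, at 10.65 ± 0.08 (SD, n = 3), was above spleen by 1.17 (SE 0.10, 95% interval 0.94 to 1.41, 2.25-fold, limma adjusted p = 0.00176). The difference between resolving and control lung was -0.23 (SE 0.10, 95% interval -0.47 to -0.00030) and was not called (limma adjusted p = 0.357). Both lung against spleen calls held in each of the alternatives run, and the nearest to the threshold was the fit of the 6 arrays of resolving lung and spleen with the replicate number as a block (difference 1.17, limma adjusted p = 0.0496).

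The Egr genes had the opposite order of lung and spleen. Egr1 encodes a factor that follows growth factor and antigen receptor signals through MAP kinase. Its log2 level was 6.38, 5.86 and 5.24 in control lung, 7.27, 6.09 and 5.92 in resolving lung and 6.69, 7.14 and 7.03 in spleen. The control lung arrays lay below the spleen arrays, while replicate 1 of resolving lung was the highest array of all 9. The difference of control lung from spleen was -1.13 (SE 0.39, 95% interval -2.02 to -0.24) and was not called (limma adjusted p = 0.153). Without replicate 1 of resolving lung, which leaves the difference at -1.13, it was called with limma adjusted p = 0.0425. It was -1.40 with limma adjusted p = 0.0163 when both replicate 1 lung arrays were left out, a choice made after seeing the data. Resolving lung differed from spleen by -0.53 (SE 0.39, limma adjusted p = 0.548) and from control lung by 0.60 (SE 0.39, limma adjusted p = 0.541), and in both comparisons the arrays overlapped.

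Egr2 and Egr3, close relatives that T cells induce through calcium signalling and NFAT, had their highest levels in spleen. Egr2 stood at 3.90, 4.21 and 3.18 in control lung, 4.75, 3.24 and 4.01 in resolving lung and 5.25, 5.83 and 5.57 in spleen. In each lung group 2 of 3 arrays exceeded the dim level, as did all 3 spleen arrays, and no lung array reached the lowest spleen array. Egr2 was lower in control lung than in spleen, with a difference of -1.79 (SE 0.39, 95% interval -2.68 to -0.90, 3.45-fold, limma adjusted p = 0.0334). That call was lost in 7 of 20 alternatives, 6 of them fits without control lung replicates 1 or 3 (limma adjusted p = 0.0854 and 0.102), without resolving lung replicate 3 (0.0555) and without spleen replicates 1, 2 or 3 (0.0714, 0.112 and 0.103). The seventh was the fit with the replicate number as a block (limma adjusted p = 0.0645). The difference of resolving lung from spleen was -1.55 (SE 0.39, 95% interval -2.44 to -0.66, limma adjusted p = 0.0603). Without replicate 1 of resolving lung it was -1.93, with limma adjusted p = 0.0227. Between resolving and control lung Egr2 differed by 0.24 (SE 0.39, 95% interval -0.66 to 1.13, limma adjusted p = 0.837).

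Egr3 stood at 4.43, 3.76 and 3.51 in control lung, 5.62, 3.92 and 4.99 in resolving lung and 5.91, 6.26 and 6.36 in spleen. The spleen arrays again lay above every lung array, and resolving lung lay between the others on average, with arrays that overlapped control lung. In control lung 2 of 3 arrays exceeded the dim level, so its differences are taken against a level near background. Egr3 was lower in control lung than in spleen, with a difference of -2.28 (SE 0.41, 95% interval -3.21 to -1.34, 4.84-fold, limma adjusted p = 0.0163). That call was lost without control lung replicates 2 or 3 (limma adjusted p = 0.0550 and 0.0613) and without spleen replicates 2 or 3 (0.0566 and 0.0635). Resolving lung differed from spleen by -1.33 (SE 0.41, 95% interval -2.27 to -0.39, limma adjusted p = 0.114), and without its replicate 1 by -1.72 (limma adjusted p = 0.0413). The difference of resolving from control lung was 0.94 (SE 0.41, 95% interval 0.0075 to 1.88, limma adjusted p = 0.353). The means of B cell markers were higher in every spleen array than in every lung array, as given above, and their part in the Egr results was not tested.

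The Ier genes differed from each other. Ier2 stood at 8.18, 8.21 and 8.27 in control lung, 7.53, 7.90 and 7.89 in resolving lung and 7.83, 7.92 and 7.48 in spleen. Control lung lay above every array of the other groups, which overlapped each other, and no comparison was called. The difference of resolving from control lung was -0.45 (SE 0.14, 95% interval -0.76 to -0.14, limma adjusted p = 0.193), and that of control lung from spleen was 0.48 (SE 0.14, 95% interval 0.17 to 0.79, limma adjusted p = 0.0873). Without replicate 1 of resolving lung the second was called, with limma adjusted p = 0.0408. Resolving lung and spleen differed by 0.03 (SE 0.14, 95% interval -0.28 to 0.34, limma adjusted p = 0.949).

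Ier3 spread over the widest range of the 6 genes, 4.77 between its lowest and highest array, which is wider than the range of 99.9% of all genes. It stood at 6.60, 4.93 and 4.36 in control lung, 7.79, 5.96 and 5.15 in resolving lung and 3.02, 3.67 and 3.39 in spleen. All lung arrays were above all spleen arrays, of which 1 of 3 was above the dim level, and replicate 1 was the highest array of each lung group. Resolving lung exceeded spleen by 2.94 (SE 0.73, 95% interval 1.27 to 4.61, limma adjusted p = 0.0580), which was not called. As 2 of 3 spleen arrays were not above the dim level, this difference and that of control lung are taken against a level near background. With the replicate number as a block the difference had limma adjusted p = 0.0423. The block was used because same-numbered arrays of these groups deviated together, which does not show that they share an animal. The block fit restricted to the 6 arrays of these groups called Nr4a1 alone. Control lung exceeded spleen by 1.94 (SE 0.73, 95% interval 0.27 to 3.61, limma adjusted p = 0.191). Replicate 1 of each lung group also had the highest means of macrophage, epithelial, endothelial and fibroblast markers in its group. Without both of these arrays resolving lung exceeded spleen by 2.20 with limma adjusted p = 0.0163, and control lung exceeded it by 1.29 with limma adjusted p = 0.0632. The difference between resolving and control lung was 1.00 (SE 0.73, 95% interval -0.67 to 2.67, limma adjusted p = 0.589).

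**Figure D3:**
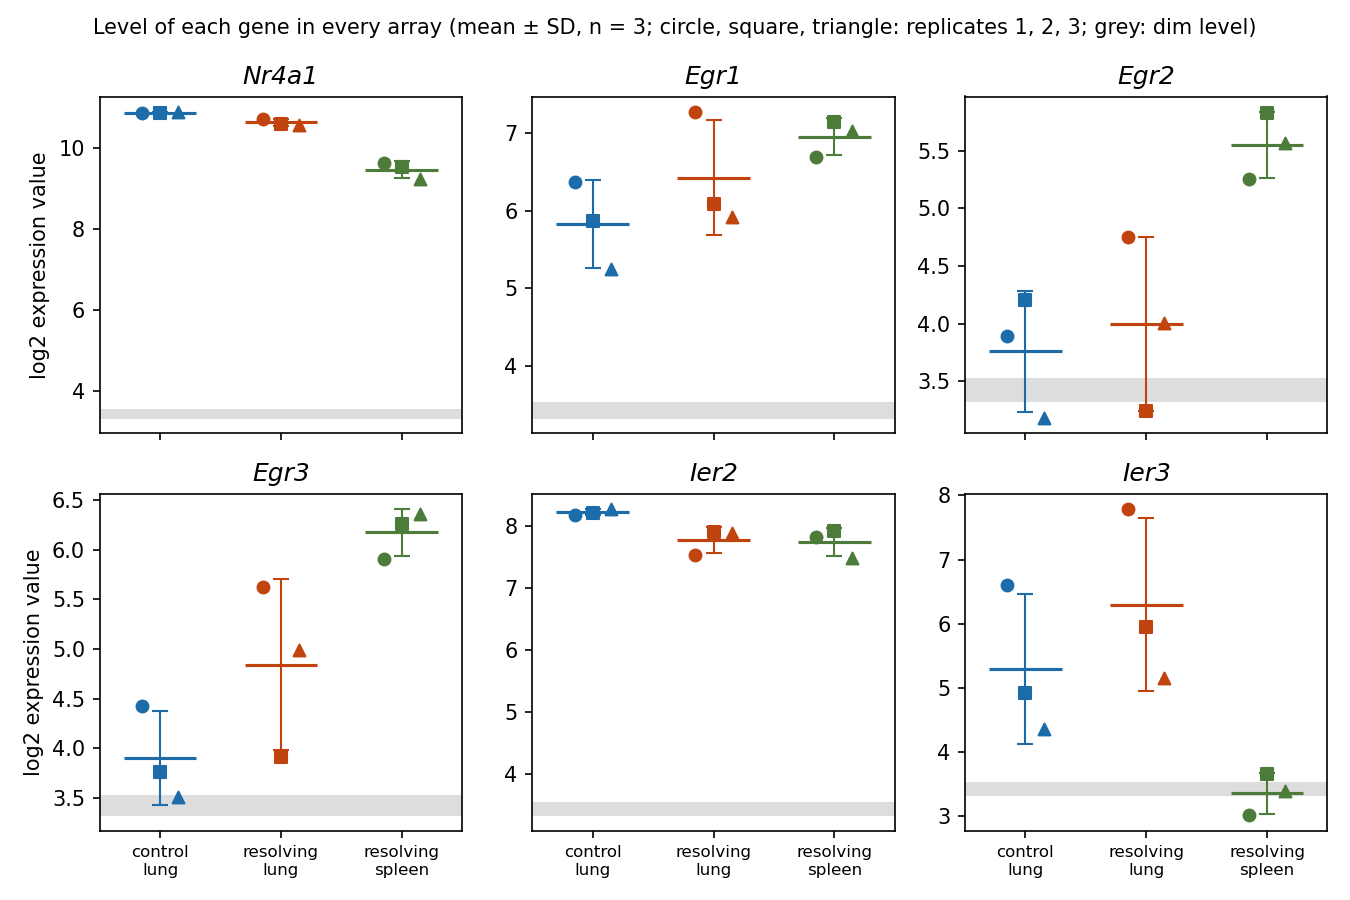
Log2 level (y axis) of each of the 6 measured genes in the 9 arrays, grouped by control lung, resolving lung and resolving spleen, with 1 point per array (circle, square and triangle for replicates 1, 2 and 3), a line at each group mean, error bars of 1 SD (n = 3) and the dim level as a grey band. Nr4a1 sits at 10.59 to 10.91 in lung and at 9.24 to 9.65 in spleen, while Egr2 and Egr3 sit highest in spleen.

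Across all 9 arrays the range of a gene was 1.66 for Nr4a1, 2.03 for Egr1, 2.64 for Egr2, 2.85 for Egr3 and 0.79 for Ier2. Those ranges exceeded the ranges of 95.2%, 97.1%, 98.6%, 98.9% and 75.7% of all genes. The replicate spread was uneven, from an SD of 0.02 for Nr4a1 in control lung to 1.35 for Ier3 in resolving lung. Replicate 1 of resolving lung was the highest array of its group for 5 of 6 genes, all but Ier2.

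Partners and corepressors of these factors showed no called difference. All 11 genes of that list were measured, 0 of 11 were called in any comparison by limma, and 1, 3 and 2 had an unadjusted p under 0.05 between resolving and control lung, resolving lung and spleen, and control lung and spleen, as did 14%, 18.8% and 18.8% of all genes. Nab2, which encodes a corepressor of EGR factors and is itself an EGR target, stood at 8.01, 7.70 and 7.99 in control lung, 8.10, 8.06 and 7.58 in resolving lung and 8.23, 8.46 and 8.31 in spleen. Its difference from spleen was -0.43 in control lung (SE 0.15, limma adjusted p = 0.165) and -0.42 in resolving lung (SE 0.15, limma adjusted p = 0.183). Nab1 differed by at most 0.16 in any comparison. Egr4 and Rxrg were at or below the dim level in all 9 arrays.

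Among 20 of 24 measured genes of the upstream inputs, the factors and enzymes that act on immediate early promoters, 2 genes were called. Crem, which encodes a factor that binds the CRE and includes an inducible repressor, stood at 5.81, 5.51 and 5.48 in control lung, at exactly the same deposited value, 5.16, in each resolving lung array and at 4.03, 4.32 and 3.87 in spleen, so that resolving lung added no spread to its test. It was higher than spleen in control lung by 1.52 (limma adjusted p = 6.57e-04) and in resolving lung by 1.09 (limma adjusted p = 0.00374). The second call was lost in the block fit of the 6 arrays of these groups (limma adjusted p = 0.0576). Srf, which encodes serum response factor, was lower in control lung than in spleen, with a difference of -0.46 (SE 0.08, limma adjusted p = 0.0167), a call lost without control lung replicates 1 or 2 or spleen replicate 2 (limma adjusted p = 0.0590, 0.0551 and 0.0540). In resolving lung against control lung 0 of 20 genes were called by limma, and 7 had an unadjusted p under 0.05, where 14% of all genes did. Of all genes, 6.16% were called between control lung and spleen and 5.46% between resolving lung and spleen.

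Other immediate early genes, of which 48 of 52 were measured, were higher in lung in most of the calls. Between control lung and spleen 20 were higher and 4 lower, where 2.67% and 3.49% of all genes were. Between resolving lung and spleen 16 were higher and 3 lower, where 2.64% and 2.82% of all genes were. Between resolving and control lung 0 were higher and 2 lower, where 0.133% and 0.323% of all genes were. The medians of the list were 0.57, 0.49 and -0.14 in turn, where the medians over all genes were under 0.01. The number of higher genes between control lung and spleen ranged from 13 to 27 when single arrays were left out, 13 without control lung replicates 1 or 2 and 27 without resolving lung replicate 1. Without both replicate 1 lung arrays it was 21 in control lung and 15 in resolving lung against spleen. In the block fit of the 6 arrays 7 were higher in resolving lung and 0 lower. Lung epithelial markers were also higher in lung, with means of 4.51 to 6.88 in the lung arrays and 3.08 to 3.73 in the spleen arrays, and 7 of 13 were called in control lung and 4 of 13 in resolving lung against spleen. Their part in these counts was not tested.

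Several regulators of the same signals led that list. Fosl2, an AP-1 subunit, stood at 8.87, 8.82 and 8.46 in control lung, 7.85, 7.85 and 7.41 in resolving lung and 5.42, 5.31 and 5.24 in spleen. It was higher than spleen by 3.39 in control lung and by 2.38 in resolving lung (limma adjusted p = 1.92e-04 and 0.00135). Rgs2, which dampens G protein signalling, was higher by 2.32 and 1.98, and Dusp4, a phosphatase of MAP kinases, by 2.42 and 1.88. Atf3, a stress-induced factor of the ATF family, was higher by 2.96 and 3.18 (limma adjusted p = 0.00701 and 0.0063). All 4 of these genes kept their calls in every alternative run in both comparisons. Fosb and Junb, which encode other AP-1 subunits, were higher in control lung by 1.72 and 1.11, whereas Jun differed by 0.17 and was not called. Tnfaip3, an inhibitor of NF-kB signalling, was higher by 2.07 and 1.68. The 4 genes lower in control lung than in spleen, named after their values were seen, were Socs3, Arc, Mcl1 and Dusp2, with differences of -0.74, -0.71, -0.34 and -0.31. These calls were lost in 3, 4, 6 and 9 of 20 alternatives. Arc and Dusp2 were also lower in resolving lung, with differences of -0.90 and -0.53. In the block fit of the 6 arrays of resolving lung and spleen the calls of Arc, Dusp2 and Tnfaip3 were lost (limma adjusted p = 0.0758, 0.0837 and 0.107). Per1, a circadian gene, and Fosl2 were lower in resolving than in control lung, with differences of -0.84 and -1.02 (limma adjusted p = 0.0372 for each). Those calls were lost in 12 and 10 of 20 alternatives. Per1 stood at 8.80 to 8.95 in control lung, 7.90 to 8.28 in resolving lung and 6.83 to 7.13 in spleen. Its call above spleen held in all 20 alternatives for control lung. For resolving lung that call was lost only in the block fit of the 6 arrays (limma adjusted p = 0.0534).

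**Figure D4:**
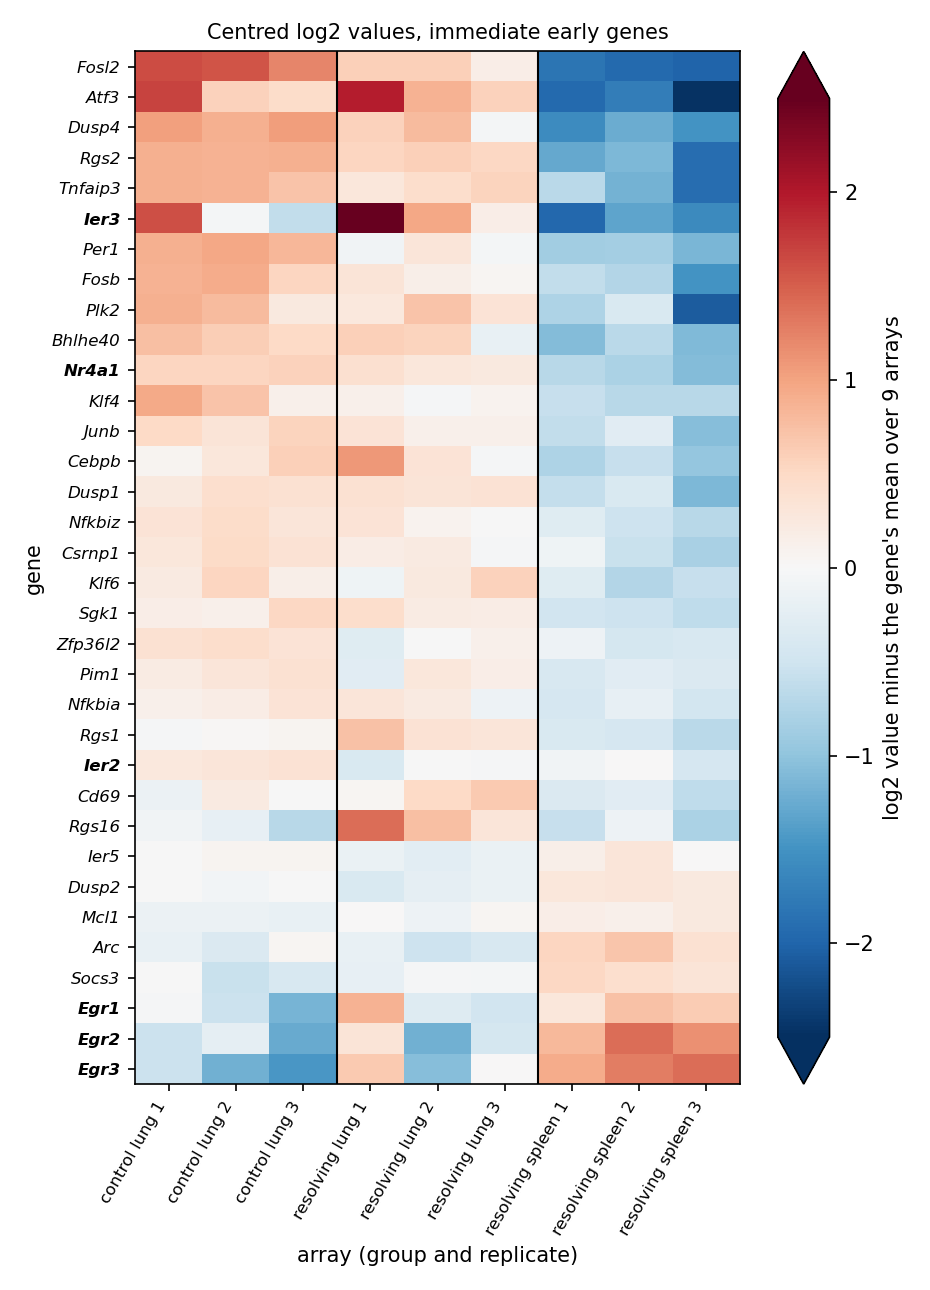
Log2 level minus the mean of the gene over the 9 arrays (colour, clipped at 2.5 in either direction) for 34 genes (rows, the 6 measured Nr4a, Egr and Ier genes in bold) in the 9 arrays (columns, grouped by control lung, resolving lung and resolving spleen). The other 28 rows are the immediate early genes called in at least 1 lung against spleen comparison. Their contrast between lung and spleen follows from that choice, and list genes without such a call are not shown. Rows are ordered by the difference of control lung from spleen. Nr4a1 and Fosl2 are high in lung and low in spleen, and Egr1, Egr2 and Egr3 are highest on average in spleen.

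Genes reported as targets of NR4A or EGR factors in T cells, 28 of 30 measured, moved in both directions. In control lung against spleen 5 were higher and 4 lower, where 2.67% and 3.49% of all genes were. In resolving lung against spleen 4 were higher and 2 lower, where 2.64% and 2.82% of all genes were. Between resolving and control lung 0 of 28 were called by limma, where 0.457% of all genes were. There 12 had an unadjusted p under 0.05, where 14% of all genes did. Ctla4, an inhibitory receptor by which Tregs restrain other T cells, was higher than spleen by 1.04 in control lung and 1.14 in resolving lung. Cdkn1a, an inhibitor of the cell cycle, was higher by 2.60 and 2.61. Both kept these calls in every alternative run. Bcl2l11, a promoter of apoptosis, was higher in control lung than in spleen by 1.34, and Havcr2, which encodes an inhibitory receptor, was higher in resolving lung by 2.07, a call lost in the block fit of the 6 arrays (limma adjusted p = 0.083). Socs1, an inhibitor of cytokine signalling, was lower, with differences of -1.32 and -0.82, the second lost in 5 of 21 alternatives, the block fit of the 6 arrays included (limma adjusted p = 0.0639). Lag3, an inhibitory receptor that is induced with EGR2, stood at 4.56, 4.11 and 4.84 in control lung, 6.57, 5.80 and 5.52 in resolving lung and 5.73, 6.25 and 6.00 in spleen. Its difference of control lung from spleen was -1.49 (limma adjusted p = 0.0204). Resolving lung overlapped spleen for Lag3 and differed from it by -0.03 (SE 0.29, limma adjusted p = 0.976). The Lag3 call was lost without control lung replicates 1 or 2 and without spleen replicates 2 or 3. Nrn1 stood at 6.61, 6.95 and 6.94 in control lung, 6.90, 7.02 and 6.45 in resolving lung and 7.41, 8.06 and 7.70 in spleen. It was called lower than spleen in control lung and in resolving lung, calls lost in 6 of 20 and 10 of 21 alternatives. Cblb and Fasl went the other way and were called higher in control lung than in spleen. Cblb stood at 9.67, 9.49 and 9.50 against 9.07, 9.10 and 9.12, and Fasl at 4.83, 4.90 and 4.72 against 4.39, 4.23 and 4.39. Each call was lost in 9 of 20 alternatives. Il2ra was called lower in control lung (lost in 11 of 20), and Tigit higher in resolving lung than in spleen (lost in 10 of 21).

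Heat shock genes that rise with enzymatic dissociation gave 0 calls among 11 measured genes in each comparison by limma. Of these genes 2, 2 and 0 had an unadjusted p under 0.05 between resolving and control lung, resolving lung and spleen, and control lung and spleen. Of all genes 14%, 18.8% and 18.8% had such a p, and 0.457%, 5.46% and 6.16% were called. Hspa1a, an inducible chaperone, stood at 9.32 to 10.46 in resolving lung, 8.09 to 9.32 in control lung and 7.83 to 8.84 in spleen, and the resolving lung arrays lay above every spleen array. Its difference of resolving lung from spleen was 1.70 (SE 0.41, limma adjusted p = 0.0512). The part of dissociation in the Nr4a1 and Ier3 results was not tested.

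The gene whose profile was most like that of Nr4a1 over the 9 arrays, by root mean square difference of profiles centred on their own means, was Lancl2, at 0.148 log2 against 0.625 for the spread of Nr4a1 about its own mean. For Egr1 it was S100a9, a neutrophil gene, at 0.237 against 0.646. For Ier2 it was Zfp655, at 0.052 against 0.264, for Egr2 1810006J02Rik, at 0.369 against 0.914, and for Egr3 Gm3002, at 0.461 against 1.048. For Ier3 it was the endothelial and myeloid receptor gene Cd93, at 0.403 against 1.49. Cd93 was below the dim level in control lung replicates 2 and 3 (2.96 and 3.27) and in all spleen arrays (2.31 to 2.54). Its likeness to Ier3 is thus partly one at background. S100a9 stood at 4.32, 3.38 and 3.14 in control lung, 5.08, 3.79 and 3.46 in resolving lung and 4.18, 4.40 and 4.30 in spleen. Replicate 1 was the highest array of each lung group, as it was for Egr1, and the spleen arrays lay above replicates 2 and 3 of both lung groups. The mean profile of Nr4a1, Egr1 and Ier2, the 3 genes above the dim level in all 9 arrays, was most like Ubxn2a, Adipor2, Ppp1r16b, Slc3a2, Tspo and Uqcrfs1, with differences between 0.075 and 0.092 against 0.18 for its own spread. Nr4a1 and Egr1 ran in opposite directions between lung and spleen, so this mean is much flatter than either gene. The likeness is to the mean and not to any of the 3 genes.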

How the data were processed

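For each sample 225 ng of total RNA from sorted Tregs went onto its own Affymetrix Mouse Gene array. The authors' deposited log2 values were used as given, and their log2 scale was read from the values, which ran from 1.07 to 12.85. Affymetrix Expression Console, RMA and Partek are named in the submitters' processing notes, with roles, order and versions not given in the sources used here. Of 21023 genes, 49.7% had exactly equal deposited values on 2 or more arrays, and none of the 6 genes described here did.

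Of 31351 rows, 21057 were named by their accessions through a RefSeq gene table, and 10294 (32.8%) stayed unnamed and out of the main test. For each gene the row with the highest mean was kept. Groups came from the sample titles. limma 3.58.1 in R 4.3.3 was fitted to all 9 arrays with 3 groups, and p-values, two-sided, were adjusted over all genes. The number of arrays limits the precision. The fit was tested on simulated data with known changes. Same-numbered arrays of resolving lung and spleen deviated together (r = 0.174, 0.132 and 0.161), which by a rule set on such correlations pairs them, while for control lung some correlations were at or below 0.1. Genes were named by list: those called in a comparison, the 8 with the smallest p where more were called, and otherwise up to 4, plus Fosb, Jun, Junb, Atf3, Nab1, Nab2 and Srf. The T cell targets depart from this rule, as all their called genes are named. Of these, Nrn1, Cblb, Fasl, Il2ra and Tigit were named after their values were seen. Members and lists were chosen with earlier results of these data known. Alternatives changed the prior, filter, scaling, array weights, arrays and block.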

Additional observations from a re-analysis of the deposited data

How the results depend on the processing

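The count of the 6 genes called between resolving lung and spleen was 1, and became 2 with a trended prior, 3 with the filter on dim genes, 3 with arrays centred on the median, 4 with array weights, 2 with the replicate block, 4 without both replicate 1 lung arrays (chosen after seeing the data) and 1 to 3 without single arrays. Between control lung and spleen it was 3, ranging from 1 to 5 without single arrays; the replicate block called 2. Between resolving and control lung it was 0 in all leave-one-array fits. Egr2 between resolving and control lung turned to -0.011 with array weights, -0.053 without control lung replicate 3, -0.14 without resolving lung replicate 1 and -0.072 without both replicate 1 lung arrays, with a range of -0.14 to 0.62 over single arrays left out. Ier2 between resolving lung and spleen turned to -0.00047 with quantile normalization, -0.036 without resolving lung replicate 2, -0.029 without resolving lung replicate 3 and -0.10 without spleen replicate 3, with a range of -0.10 to 0.15 over single arrays left out.

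Over all genes, 96 were called between resolving and control lung, 0 by limma with only these groups in the fit (2344 at an unadjusted p under 0.05), 235 with the dim filter, 63 with array weights, 15 with the replicate block, 15 without both replicate 1 lung arrays and 4 to 212 without single arrays. Between resolving lung and spleen 1148 became 704 with only these groups, 175 with the replicate block in only their arrays and 508 to 1131 without single arrays. Between control lung and spleen 1295 became 681 to 1793. Control lung arrays share only the number with the other groups, and whether resolving lung and spleen arrays share animals is not known. Of 9 arrays 5 correlated best with their own number. The block moved the Egr2 call between control lung and spleen to adjusted p = 0.0645. Searching 250 bases moved motif shares down, for the CRE half-site from 20.8% to 17.8%. Egr2 in lung, Egr3 in control lung and Ier3 in spleen lie partly at the background of the array. The cause of these changes was not tested.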
